A study of Mus musculus with 8 samples.

Results

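The genes described here encode deubiquitinases of the ubiquitin-specific protease (USP) and ovarian tumour (OTU) families, measured in spleen XCR1+ dendritic cells before and after spontaneous maturation. They were chosen by name: a gene belonged if its only symbol began with Usp and a digit, or with Otub or Otud, and Usp18, which acts on ISG15, was left out by the same rule. Of 19938 genes with a symbol of their own, 64 met the rule, 54 of them Usp and 10 Otu genes. The rule admits a gene by its name and not by a measured value, but it was chosen with earlier results of these data known. Usp6nl, a regulator of Rab GTPases, and Usp46os2, an RNA named for the strand opposite Usp46, match the pattern without being deubiquitinases and were kept, as the rule requires. A further 2 rows of the table carry a member's symbol together with others and were not used.

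RNA from 8 sorted samples was measured on 1 array each. The mice were untreated and carried the Il12b-EYFP reporter, in which yellow fluorescence marks cells that use the gene of the p40 subunit of interleukin 12. The labels give no age, sex or strain. All fractions were spleen cells without lineage markers, with no or low BST2, high CD11c, and CD8α. The immature fraction (n = 3) lacked CCR7 and reporter fluorescence, the CCR7+Il12b- fraction (n = 3) had CCR7 without fluorescence, and the CCR7+Il12b+ fraction (n = 2) had both. CCR7 is the receptor that leads maturing dendritic cells towards lymphoid chemokines. The comparisons ask how the transcriptome differs between immature and matured cells and between the matured fractions with and without Il12b.

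Ubiquitin is attached to proteins as single units or as chains of several linkages, and deubiquitinases take it off again. Chains of some linkages send a protein to the proteasome, while others build signalling platforms downstream of Toll-like and tumour necrosis factor receptors, so removal of a chain can either rescue a protein or silence a signal. USP enzymes form the largest family and often choose substrates through partner proteins, whereas OTU enzymes often choose the linkage. In dendritic cells, several of these enzymes are known for limiting NF-kB and interferon responses.

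Expression is given as the deposited log2 values, and each change as a difference of group means on that scale ± the standard error of a limma model over all 8 arrays. The threshold for a call was an adjusted p under 0.05, over all 19938 genes. Array medians lay between 5.25 and 5.46. A mark of 4.98 stood for background, the level below which 95% of 1194 olfactory and vomeronasal receptors lay. All 11 markers of XCR1+ dendritic cells lay above it in every fraction, although 8 of the 11 were lower and 1 higher in CCR7+Il12b+ than in immature cells, and their mean level ran from 10.04 to 10.14 on the immature, 9.28 to 9.72 on the CCR7+Il12b- and 8.60 to 8.75 on the CCR7+Il12b+ arrays. Replicate 3 of the CCR7+Il12b- fraction stood apart from the other 2 in the direction of the CCR7+Il12b+ arrays, at 30.1 against 8.20 and 13.4 on the leading principal component of all genes, where the CCR7+Il12b+ arrays lay at 52.2 and 53.6. Whether the replicates are different mice is not stated, and p-values then measure only the scatter among these samples, possibly a technical one. In sorted bulk samples, fewer cells that express a gene and less RNA per cell cannot be told apart.

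Of the 64 genes, 51 had a mean above the background mark in at least 1 fraction. The other 13 did not: Usp9y, Usp13, Usp26, Usp29, Usp44, Usp46, Usp50, Usp51, Usp17la, Usp17lb, Usp17ld, Otud6a and Otud7a. The Usp17l genes are near-identical copies of each other, so a value of one of them can hold signal of another.

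Matured cells differed from immature cells in both directions. Against the immature fraction, the CCR7+Il12b- fraction had 8 members higher and 8 lower, or 25.0% of the 64, where 23.6% of all genes were called. The CCR7+Il12b+ fraction had 12 higher and 11 lower, or 35.9%, where 32.0% of all genes were called. Usp32 and Otud5 had the largest rises and Usp45, Usp22, Usp1, Otub1 and Usp10 the largest falls in CCR7+Il12b+ cells. Both comparisons use the same 3 immature arrays, so their values are given side by side and not as support for each other. The share of members called lay near that of all genes in each direction: 12.5% higher against 9.10% and 12.5% lower against 14.5% for CCR7+Il12b-, and 18.8% higher against 14.1% and 17.2% lower against 17.9% for CCR7+Il12b+. The median change of the 64 was 0.05 in both comparisons, where the median over all genes was 0.06 and 0.09. The direction of the split depended on centring: with array medians set equal, 6 rose and 9 fell in CCR7+Il12b- cells and 7 rose and 13 fell in CCR7+Il12b+ cells, and cyclic loess gave 11 and 7 in CCR7+Il12b- cells. Without immature replicate 2 or immature replicate 3 the CCR7+Il12b- count was 10 in place of 16.

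**Figure D1:**
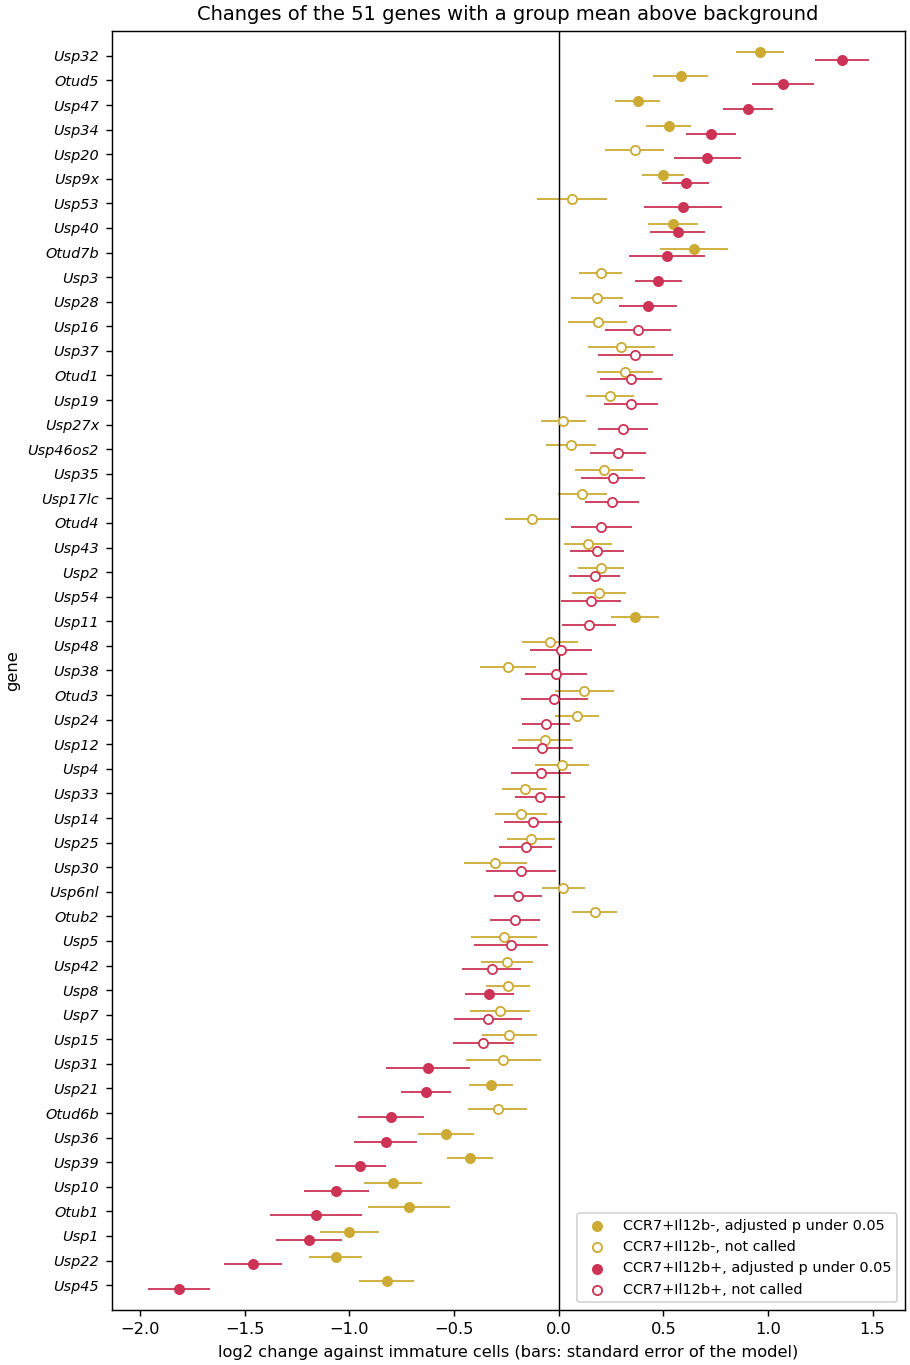
Change in expression of the 51 genes with a group mean above background, on the horizontal axis in log2 units against immature cells, for CCR7+Il12b- (yellow) and CCR7+Il12b+ (red) cells. Filled points passed an adjusted p under 0.05, open points did not, and bars are the standard error of the model. Changes in CCR7+Il12b+ cells ran from -1.81 for Usp45 to 1.35 for Usp32.

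Changes of at least 2-fold were few. They were reached by 2 called members in CCR7+Il12b- cells, Usp22 and Usp1, and by 7 in CCR7+Il12b+ cells, where 6.10% and 12.7% of all genes did so. The values of the 2 groups did not overlap for 29 members in the CCR7+Il12b- comparison and for 37 in the CCR7+Il12b+ comparison, against 41.3% and 57.1% of all genes. For the 51 genes above the mark, 31.4% and 43.1% were called, and 35.0% and 46.4% of all genes above it. Most genes of the larger lists given below lay above the mark too, so these shares are the nearer comparison for them.

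**Figure D2:**
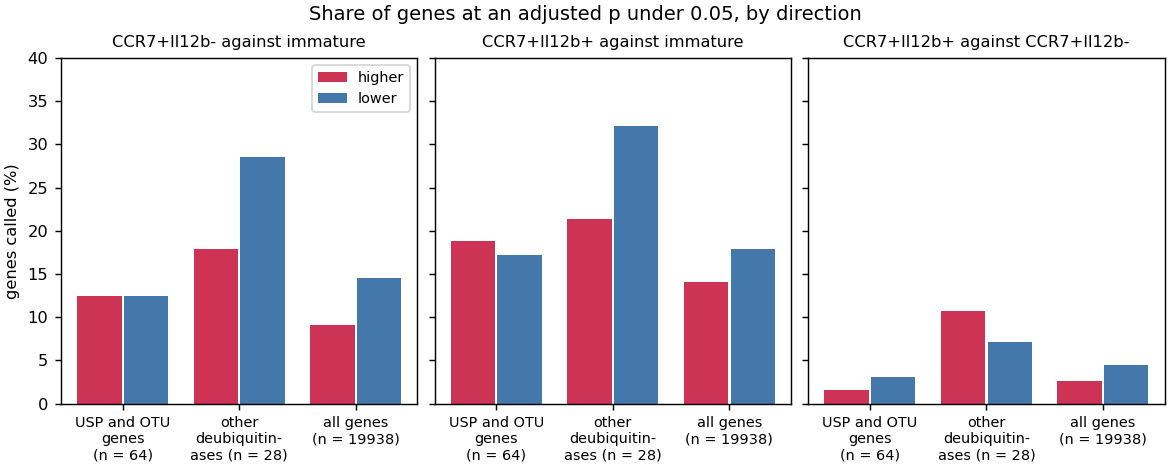
Share of genes called at an adjusted p under 0.05, in percent on the vertical axis, higher (red) or lower (blue), in the 3 comparisons. Bars are given for the 64 USP and OTU genes, 28 other deubiquitinases or relatives and all 19938 genes. The bars of the 64 genes reach 18.8% higher and 17.2% lower in CCR7+Il12b+ against immature cells, beside 14.1% and 17.9% of all genes.

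RefSeq promoter windows on GRCm38.p6 were available for 50 of the 64 members, as 54 windows of 300 bases, with 250 before and 50 after the transcription start. Some genes have several windows, which can overlap. They were searched on both strands for GGG and TTTCC with any 2 bases between (NF-kB), TTTNGCGC (E2F), CACGTG (E-box), TGACGTCA (CRE), CCGGAAG (ETS) and GAAA repeated after any 2 bases (ISRE), none of which contains another, though their ends can overlap. The NF-kB letters were in 0 of the 54 windows, against 1.63% of all 32851 windows in the table. The ETS letters were in 3 of 7 windows of members that fell in a matured fraction (42.9%), 1 of 11 windows of members that rose (9.09%) and 5 of 36 windows of members not called (13.9%), against 8.86% of all windows. These 3 falling members, Otub1, Usp36 and Usp8, and the rising member, Usp11, are shown because they hold these letters. The calls of Usp8 and Usp11 ended in several other fits, as given below. Median GC was 61.7% in the falling, 65.0% in the rising and 63.2% in the uncalled windows, against 52.7% in all windows. The falling Usp1, Usp22, Usp39 and Otud6b and the rising Otud7b, Usp53 and Usp9x had no window. The difference between these groups of windows was not tested. Each line gives the 250 bases before the start, 5′ to 3′ in the direction of transcription, with CCGGAAG or its reverse complement CTTCCGG in capitals. Otub1 lies on the minus strand at chr19:7206285-7206534, Usp36 on the minus strand at chr11:118290245-118290494, Usp8 on the plus strand at chr2:126707078-126707327 and Usp11 on the plus strand at chrX:20703659-20703908.
Otub1: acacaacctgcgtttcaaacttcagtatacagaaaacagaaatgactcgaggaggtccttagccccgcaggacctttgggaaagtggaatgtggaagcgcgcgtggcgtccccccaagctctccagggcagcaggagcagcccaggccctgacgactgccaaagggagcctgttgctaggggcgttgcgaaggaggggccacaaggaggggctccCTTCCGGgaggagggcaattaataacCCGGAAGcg
Usp36: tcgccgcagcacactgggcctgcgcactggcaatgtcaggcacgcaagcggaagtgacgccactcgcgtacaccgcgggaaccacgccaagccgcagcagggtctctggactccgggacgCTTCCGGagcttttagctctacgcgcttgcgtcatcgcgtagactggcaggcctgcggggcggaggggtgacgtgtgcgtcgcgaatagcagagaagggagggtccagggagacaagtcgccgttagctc
Usp8: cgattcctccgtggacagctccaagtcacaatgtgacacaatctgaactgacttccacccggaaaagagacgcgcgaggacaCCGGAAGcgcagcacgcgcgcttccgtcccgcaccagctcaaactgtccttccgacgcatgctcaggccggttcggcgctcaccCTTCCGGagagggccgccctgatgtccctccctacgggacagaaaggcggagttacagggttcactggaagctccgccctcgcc
Usp11: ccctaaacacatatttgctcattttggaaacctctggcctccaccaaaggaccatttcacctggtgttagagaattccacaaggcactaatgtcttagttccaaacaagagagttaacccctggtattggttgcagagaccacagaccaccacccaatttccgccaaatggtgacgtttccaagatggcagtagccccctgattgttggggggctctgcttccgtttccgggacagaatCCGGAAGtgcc
In Otub1 the ETS letters begin 35 and 9 bases before the start, in Usp36 130, in Usp8 168 and 84, and in Usp11 11 bases before it. A match describes the letters only; binding was not measured.

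Genes known from NF-kB, interferon and innate signalling came from a list of 18 members, of which 3 rose and 2 fell in CCR7+Il12b- cells and 2 rose and 3 fell in CCR7+Il12b+ cells. That is 27.8% in both, against 35.0% and 46.4% of all genes above the mark (23.6% and 32.0% of all genes). Of the 18, 16 lay above the mark. Otud5, which removes chains from the adaptor TRAF3 and limits type I interferon, was at 8.97, 8.74 and 8.81 on the immature arrays, 9.40, 9.31 and 9.55 on the CCR7+Il12b- arrays, and 10.12 and 9.70 on the CCR7+Il12b+ arrays. All arrays of each matured fraction lay above all immature arrays, and replicate 1 of CCR7+Il12b+ was the highest of the 8. Otud5 rose by 0.58 ± 0.13 in CCR7+Il12b- cells (adjusted p = 0.0076) and by 1.07 ± 0.15 in CCR7+Il12b+ cells (2.10-fold, adjusted p = 0.000176).

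Otub1, which blocks the ubiquitin-conjugating enzyme Ubc13 without needing its catalytic activity, went the other way. It was at 8.26, 8.85 and 8.78 on the immature arrays, 8.05, 8.20 and 7.50 on the CCR7+Il12b- arrays, and 7.52 and 7.42 on the CCR7+Il12b+ arrays. Each matured fraction lay below all immature arrays, immature replicate 1 lay nearest to the matured cells, and CCR7+Il12b- replicate 3 lay at the level of the CCR7+Il12b+ arrays. Otub1 fell by 0.72 ± 0.20 in CCR7+Il12b- cells (adjusted p = 0.0214) and by 1.16 ± 0.22 in CCR7+Il12b+ cells (2.23-fold, adjusted p = 0.00171). The former call ended without immature replicate 2, immature replicate 3 or CCR7+Il12b- replicate 3 (adjusted p from 0.0723 to 0.0946). Its paralog Otub2 was not called, with 0.17 ± 0.11 (adjusted p = 0.295) and -0.21 ± 0.12 (adjusted p = 0.217); the difference between both genes was not tested.

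Otud7b, known as Cezanne, which acts on TRAF3 in the noncanonical NF-kB pathway, rose by 0.65 ± 0.16 in CCR7+Il12b- cells (adjusted p = 0.0132), though not without CCR7+Il12b- replicate 3 (0.0539). In CCR7+Il12b+ cells its change was 0.52 ± 0.18 (adjusted p = 0.0482), and this call ended in 5 of the 8 fits that left out 1 array (0.0656 to 0.27): without immature replicate 1 or 2, CCR7+Il12b- replicate 2, or either CCR7+Il12b+ replicate. It also ended in 6 of 11 other fits (0.0502 to 0.168). Usp21, which removes ubiquitin from RIPK1 and histone H2A, fell by 0.63 ± 0.12 in CCR7+Il12b+ cells (adjusted p = 0.00155). Its value of -0.32 ± 0.11 in CCR7+Il12b- cells (adjusted p = 0.0463) did not pass without any 1 immature or CCR7+Il12b- array (0.068 to 0.198) nor in 5 of 11 other fits (0.0568 to 0.155). Usp11 was called in CCR7+Il12b- cells with 0.36 ± 0.12 (adjusted p = 0.0409), again not without any 1 immature or CCR7+Il12b- array (0.0798 to 0.146) nor in 3 of 11 other fits (0.0676 to 0.161). In CCR7+Il12b+ cells it differed from immature by 0.15 ± 0.13 (adjusted p = 0.42), and the value between the matured fractions was -0.22 ± 0.13 (adjusted p = 0.436).

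Usp31 fell by 0.62 ± 0.20 in CCR7+Il12b+ cells (adjusted p = 0.0346), without passing when immature replicate 2, immature replicate 3 or CCR7+Il12b+ replicate 1 was left out (0.0503 to 0.288) or when its 2 rows were averaged (0.0566). Its other row changed by -0.14. Usp4 and Usp15, paralogs of Usp11, were at -0.08 ± 0.14 (adjusted p = 0.697) and -0.36 ± 0.15 (adjusted p = 0.0858) in CCR7+Il12b+ cells and were not called; Usp15 passed without CCR7+Il12b- replicate 3 (0.0384) and with array medians set equal (0.0367). The rest of this list, Usp2, Usp7, Usp17la, Usp25, Usp38, Otud1, Otud3, Otud4 and Otud7a, was not called in any comparison. In CCR7+Il12b+ cells Usp7 stood at -0.34 ± 0.16, and without CCR7+Il12b+ replicate 1 it passed at -0.63 (adjusted p = 0.00868). Otud1 stood at 0.35 ± 0.15 there and passed without CCR7+Il12b+ replicate 2 (0.57, adjusted p = 0.0195). It also passed against immature cells in both matured fractions under a repeated quantile normalization and under cyclic loess (0.0259 to 0.0446). Otud7a, the paralog of Otud7b, lay below the background mark throughout.

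Among 8 measured genes assigned to histones and transcription, 2 fell in CCR7+Il12b- cells, and 1 rose and 2 fell in CCR7+Il12b+ cells. The shares were 25.0% and 37.5%, against 35.0% and 46.4% of all genes above the mark (23.6% and 32.0% of all genes). Of the 8, 6 lay above the mark. Usp22, the deubiquitinase of the SAGA coactivator complex, which acts on histone H2B, was at 8.96, 9.08 and 9.0 on the immature arrays, 7.96, 8.14 and 7.75 on the CCR7+Il12b- arrays, and 7.69 and 7.42 on the CCR7+Il12b+ arrays. The immature arrays stood well clear of all others, while CCR7+Il12b- replicate 3 and CCR7+Il12b+ replicate 1 lay close together. Usp22 fell by 1.07 ± 0.13 in CCR7+Il12b- cells (2.09-fold, adjusted p = 0.000133) and by 1.46 ± 0.14 in CCR7+Il12b+ cells (2.75-fold, adjusted p = 1.27e-05). The difference of -0.40 ± 0.14 between the matured fractions did not pass (adjusted p = 0.141).

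The other enzymes known to use the same SAGA partners did not pass. Usp27x changed by 0.02 ± 0.11 (adjusted p = 0.908) and 0.31 ± 0.12 (adjusted p = 0.0775; 0.0224 without CCR7+Il12b+ replicate 1), and Usp51 lay below the mark on every array, between 3.56 and 3.79. Usp36, a nucleolar enzyme, fell by 0.54 ± 0.13 in CCR7+Il12b- cells (adjusted p = 0.0132; 0.0604 and 0.0652 without immature replicate 2 or 3) and by 0.83 ± 0.15 in CCR7+Il12b+ cells (adjusted p = 0.00133). Usp3, which acts on ubiquitylated histones, rose by 0.48 ± 0.11 in CCR7+Il12b+ cells (adjusted p = 0.00697), a call that ended with array medians set equal (0.0516). Usp16, Usp42 and Usp44 were not called in any comparison; in CCR7+Il12b+ cells Usp16 passed without CCR7+Il12b+ replicate 2 (0.58, adjusted p = 0.0352).

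Of 10 genes assigned to DNA repair and the cell cycle, 8 lay above the mark. In CCR7+Il12b- cells 1 rose and 2 fell, and in CCR7+Il12b+ cells 2 rose and 2 fell. The shares were 30.0% and 40%, against 35.0% and 46.4% of all genes above the mark (23.6% and 32.0% of all genes). Usp1, which removes ubiquitin from FANCD2 and PCNA, was at 7.44, 7.61 and 7.48 on the immature arrays, 6.70, 6.38 and 6.46 on the CCR7+Il12b- arrays, and 6.56 and 6.08 on the CCR7+Il12b+ arrays. The immature arrays were the highest, and the matured fractions overlapped each other. Usp1 fell by 1.0 ± 0.14 (2.00-fold, adjusted p = 0.000429) and by 1.19 ± 0.16 (2.29-fold, adjusted p = 0.000131).

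Usp45, which acts on the repair nuclease subunit ERCC1, had the largest change among the members and separated all 3 fractions. It was at 7.11, 7.48 and 7.46 on the immature arrays, 6.62, 6.62 and 6.34 on the CCR7+Il12b- arrays, and 5.62 and 5.46 on the CCR7+Il12b+ arrays. No fraction overlapped another, and each array of CCR7+Il12b+ lay below each array of CCR7+Il12b-. Usp45 fell by 0.82 ± 0.13 in CCR7+Il12b- cells (adjusted p = 0.00106) and by 1.81 ± 0.15 in CCR7+Il12b+ cells (3.52-fold, adjusted p = 3.86e-06). Between the matured fractions it was lower by 0.99 ± 0.15 with Il12b (1.99-fold, adjusted p = 0.00249), and all 3 calls passed in each of 19 other fits, 8 of which left out 1 array.

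Usp47, which spares DNA polymerase beta in base excision repair, rose. It was at 8.61, 8.65 and 8.64 on the immature arrays, 8.99, 8.90 and 9.15 on the CCR7+Il12b- arrays, and 9.63 and 9.45 on the CCR7+Il12b+ arrays. The 3 fractions did not overlap. Usp47 rose by 0.91 ± 0.12 in CCR7+Il12b+ cells (1.87-fold, adjusted p = 0.000134). In CCR7+Il12b- cells it rose by 0.38 ± 0.11 (adjusted p = 0.0251). Leaving out any 1 immature array or CCR7+Il12b- replicate 3 ended this call (0.0629 to 0.0877), as did setting array medians equal (0.096). Usp28 changed by 0.43 ± 0.14 in CCR7+Il12b+ cells (adjusted p = 0.0358), which did not pass without any 1 immature array or CCR7+Il12b+ replicate 1 (0.0704 to 0.215). It also did not pass under any of the 3 other scalings (0.183 to 0.204). Its paralog Usp25 was not called (-0.16 ± 0.13, adjusted p = 0.376). Usp24, Usp26, Usp29, Usp37, Usp43 and Usp48 were not called in any comparison.

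**Figure D3:**
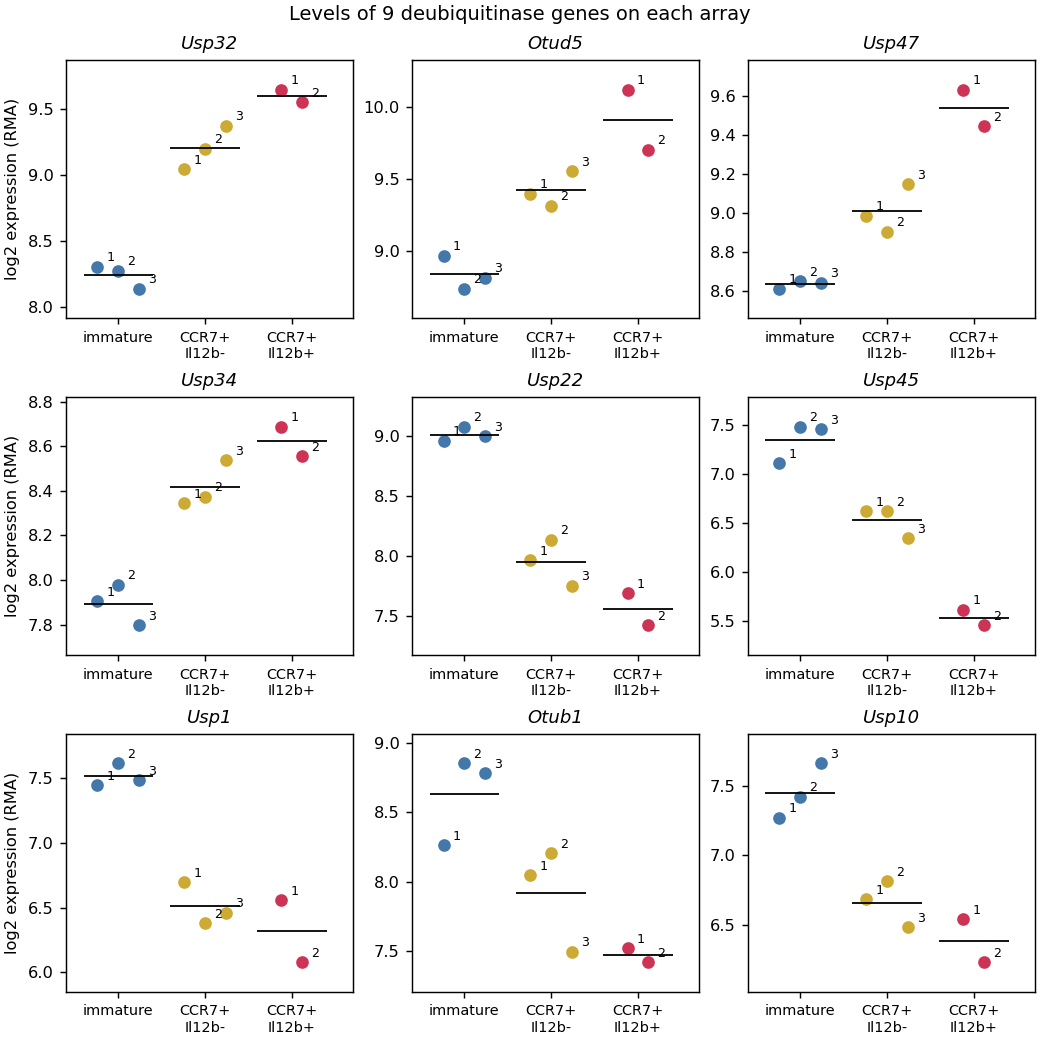
Expression of 9 genes on each array, in log2 units on the vertical axis, by fraction; numbers beside points are replicate numbers and lines are group means. The matured fractions overlap for Usp1, Otub1 and Usp10 and not for the others, and Usp45 runs from 7.11 to 7.48, 6.34 to 6.62 and 5.46 to 5.62 in the 3 fractions. Vertical axes differ between panels and do not start at 0.

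Of 10 genes assigned to endosomes, the endoplasmic reticulum and membrane traffic, 9 lay above the mark. In CCR7+Il12b- cells 3 rose and 1 fell, and in CCR7+Il12b+ cells 4 rose and 2 fell. That is 40% and 60.0%, against 35.0% and 46.4% of all genes above the mark (23.6% and 32.0% of all genes). The assignment is loose, since Usp34, Usp9x and Usp10 among the called genes are described below by other processes. These shares therefore do not describe membrane traffic as such. Usp32, a membrane-anchored enzyme of the Golgi and endolysosomes, was at 8.31, 8.28 and 8.14 on the immature arrays, 9.04, 9.20 and 9.37 on the CCR7+Il12b- arrays, and 9.64 and 9.55 on the CCR7+Il12b+ arrays. The 3 fractions did not overlap. Usp32 rose by 0.96 ± 0.11 in CCR7+Il12b- cells (1.95-fold, adjusted p = 0.000138) and by 1.35 ± 0.13 in CCR7+Il12b+ cells (2.56-fold, adjusted p = 1.1e-05). The difference between the matured fractions, 0.39 ± 0.13, did not pass (adjusted p = 0.105) but did without CCR7+Il12b- replicate 3 (0.0447).

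Usp34, a very large enzyme known to act on axin in Wnt signalling, rose by 0.52 ± 0.11 (adjusted p = 0.0042) and 0.73 ± 0.12 (adjusted p = 0.000631). Usp9x, a large X-linked enzyme that spares proteins such as MCL1 and the ligase ITCH, rose by 0.50 ± 0.10 (adjusted p = 0.00404) and 0.61 ± 0.11 (adjusted p = 0.00143). Its Y-linked counterpart Usp9y lay below the mark on every array. Usp20, which acts on internalised receptors, rose by 0.71 ± 0.16 in CCR7+Il12b+ cells (adjusted p = 0.00497) and stood at 0.36 ± 0.14 in CCR7+Il12b- cells (adjusted p = 0.0942). Its paralog Usp33 was at -0.16 ± 0.11 (adjusted p = 0.322) and -0.09 ± 0.12 (adjusted p = 0.603); the difference between both genes was not tested.

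Usp10, which spares p53 and binds the stress-granule protein G3BP1, was at 7.27, 7.42 and 7.66 on the immature arrays, 6.68, 6.81 and 6.48 on the CCR7+Il12b- arrays, and 6.54 and 6.24 on the CCR7+Il12b+ arrays. The immature arrays lay above all others, and the matured fractions overlapped. Usp10 fell by 0.79 ± 0.14 (adjusted p = 0.00184) and by 1.06 ± 0.16 (2.09-fold, adjusted p = 0.000293). Usp8, which works with the ESCRT machinery on receptors bound for lysosomes, was at -0.33 ± 0.12 in CCR7+Il12b+ cells, just inside the threshold (adjusted p = 0.0498). That call ended in 7 of the 8 fits that left out 1 array (0.054 to 0.133), all but the one without CCR7+Il12b- replicate 3, and in 7 of 11 other fits (0.0514 to 0.247), where cyclic loess gave -0.19. Usp19, anchored in the endoplasmic reticulum, was at 0.35 ± 0.13 in CCR7+Il12b+ cells (adjusted p = 0.0609) and passed without immature replicate 1 or CCR7+Il12b+ replicate 2 (0.0491 and 0.0272). Usp6nl was not called, at 0.02 ± 0.10 and -0.19 ± 0.12.

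A list of 6 genes was assigned to free ubiquitin chains and the proteasome, without each being known for such a role. In it, Usp40 rose by 0.55 ± 0.12 (adjusted p = 0.00614) in CCR7+Il12b- cells and by 0.57 ± 0.13 (adjusted p = 0.00646) in CCR7+Il12b+ cells. The latter call ended without CCR7+Il12b+ replicate 1 (0.0579). Of this list, 4 genes lay above the mark. Called were 16.7% and 33.3%, against 35.0% and 46.4% of all genes above the mark (23.6% and 32.0% of all genes). Otud6b fell by 0.80 ± 0.16 in CCR7+Il12b+ cells (adjusted p = 0.00227) and stood at -0.29 ± 0.14 in CCR7+Il12b- cells (adjusted p = 0.176). Usp5, which takes free chains apart, and Usp14, which works on the proteasome, were not called, and Usp13 and Otud6a lay below the mark. Without CCR7+Il12b+ replicate 1, Usp5 passed in CCR7+Il12b+ cells (-0.51, adjusted p = 0.0497). Both mitochondrial members, Usp30 and Usp35, were not called, nor were Usp12 and Usp46, which share the activating partner UAF1.

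Of 4 members listed here as having no or doubtful catalytic activity, 0 rose and 1 fell in CCR7+Il12b- cells. In CCR7+Il12b+ cells 1 rose and 1 fell. The shares were 25% and 50%, against 35.0% and 46.4% of all genes above the mark (23.6% and 32.0% of all genes). The gene that fell in both matured fractions was Usp39. Usp39, a spliceosome protein, was at 7.79, 7.97 and 8.10 on the immature arrays, 7.57, 7.51 and 7.52 on the CCR7+Il12b- arrays, and 7.04 and 6.97 on the CCR7+Il12b+ arrays. The 3 fractions did not overlap. It fell by 0.42 ± 0.11 in CCR7+Il12b- cells (adjusted p = 0.0152; from 0.0512 to 0.0818 without immature replicate 2, immature replicate 3 or CCR7+Il12b- replicate 2) and by 0.95 ± 0.12 in CCR7+Il12b+ cells (1.93-fold, adjusted p = 0.000105). Usp53, a protein of tight junctions, was at 0.06 ± 0.17 (adjusted p = 0.824) in CCR7+Il12b- cells and 0.59 ± 0.19 (adjusted p = 0.032) in CCR7+Il12b+ cells. The latter call ended without either CCR7+Il12b+ array, immature replicate 2 or immature replicate 3 (0.0691 to 0.124) and with array medians set equal (0.0887). Its paralog Usp54 was not called (0.15 ± 0.14, adjusted p = 0.445), and its 2 rows gave 0.15 and 0.21. Usp50 lay below the mark.

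Outside the role lists, Usp17ld passed in CCR7+Il12b+ cells with 0.36 ± 0.12 (adjusted p = 0.0491), but its means in both groups lay below the background mark, so no fold is given. That call ended in 6 of the 8 fits that left out 1 array (0.0539 to 0.175), all but those without CCR7+Il12b- replicate 1 or 2, and in 6 of 9 other fits (0.0557 to 0.294). Under the 3 other scalings its value was 0.19 to 0.22. Usp17lb, Usp17lc and Usp46os2 were not called.

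Between the matured fractions, 1 member was higher with Il12b and 2 were lower, or 4.69% of the 64, where 7.08% of all genes were called (2.61% higher and 4.47% lower). Usp47 was higher by 0.53 ± 0.12 (1.44-fold, adjusted p = 0.023), and Usp45 and Usp39 were lower, Usp39 by 0.53 ± 0.12 (1.44-fold, adjusted p = 0.0252). The call of Usp47 ended without CCR7+Il12b- replicate 1, CCR7+Il12b- replicate 2 or CCR7+Il12b+ replicate 1 (0.0673 to 0.136), and that of Usp39 without any 1 of these, immature replicate 2 or CCR7+Il12b+ replicate 2 (0.0508 to 0.106). With only the 2 groups compared, both calls ended too (0.0743 for Usp47 and 0.0507 for Usp39). That of Usp39 also ended with a trend in the prior variance (0.0533), array weights (0.0509) and a fixed replicate block (0.08). The count was 1 without CCR7+Il12b- replicate 1, CCR7+Il12b- replicate 2 or CCR7+Il12b+ replicate 1, and 5 without CCR7+Il12b- replicate 3, where Usp53 (adjusted p = 0.024) and Usp32 (0.0447) passed too. Values did not overlap for 19 members, against 29.6% of all genes.

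**Figure D4:**
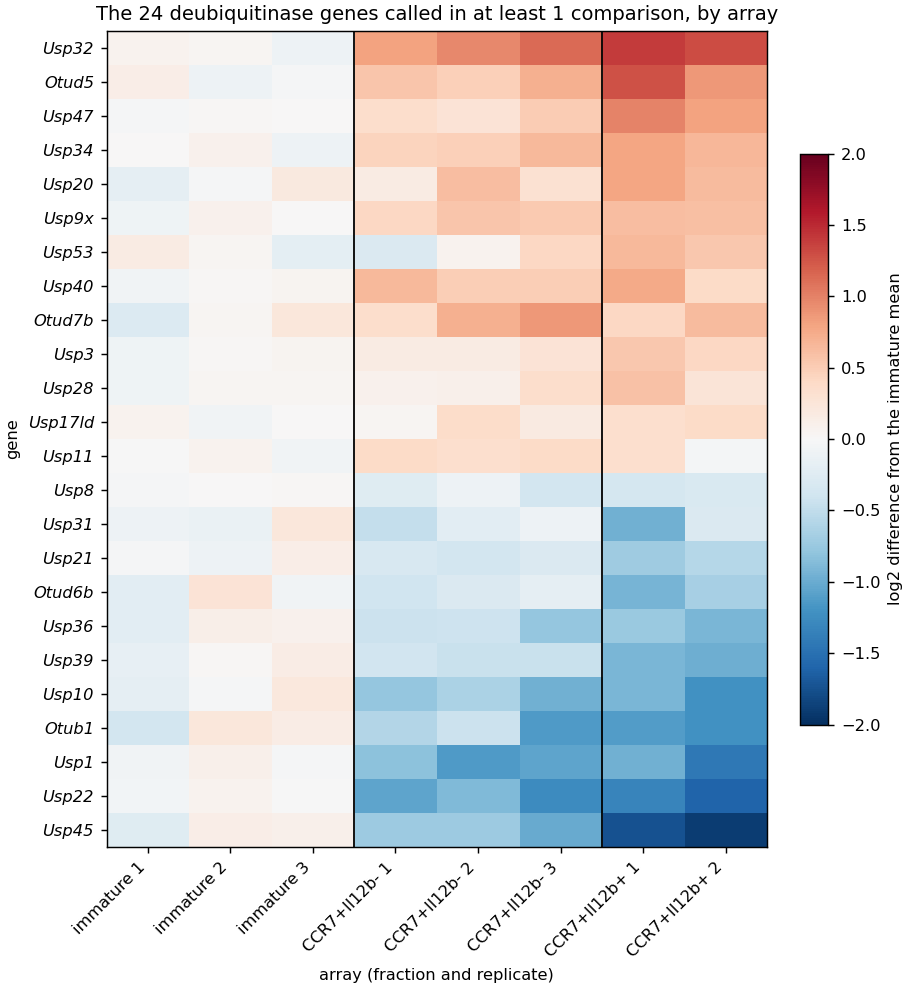
Log2 difference of each array (columns) from the immature mean for the 24 genes called in at least 1 comparison (rows, ordered by their change in CCR7+Il12b+ cells), red for higher and blue for lower. The CCR7+Il12b- columns mostly lie between the other fractions, and the deepest blue is Usp45 in the CCR7+Il12b+ columns, at a mean change of -1.81.

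Over the 51 genes above the mark, the leading principal component took up 76.5% of the variance between arrays and placed the fractions in order. The component of all genes took up 77.1% and gave the same order, so this order is not particular to the members. The values below are those of the 51 genes. The immature arrays lay at -1.79, -2.34 and -2.43, the CCR7+Il12b- arrays at 0.34, 0.39 and 1.19, and the CCR7+Il12b+ arrays at 2.29 and 2.37. Replicate 3 of CCR7+Il12b- was again the one nearest to CCR7+Il12b+.

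Deubiquitinases and their relatives outside the name pattern gave 28 measured genes, 26 of them above the mark in at least 1 fraction. Not all are active deubiquitinases, Otulinl being one that is not. In CCR7+Il12b- cells 5 rose and 8 fell (46.4%), against 35.0% of all genes above the mark and 23.6% of all genes. In CCR7+Il12b+ cells 6 rose and 9 fell (53.6%), against 46.4% and 32.0%. With Il12b, 3 were higher and 2 lower than without it (17.9%), against 10.8% and 7.08%. Tnfaip3, which encodes the NF-kB inhibitor A20, an OTU enzyme that the pattern does not catch, rose by 1.12 ± 0.12 (adjusted p = 5.97e-05) and 1.62 ± 0.13 (3.08-fold, adjusted p = 3.45e-06). Josd1, a Josephin-domain enzyme, rose by 0.97 ± 0.16 (adjusted p = 0.00101) and 1.70 ± 0.17 (adjusted p = 2.14e-05). Otulinl, a relative of the linear-chain enzyme OTULIN without its activity, fell by 0.66 ± 0.14 (adjusted p = 0.00553) and fell by 2.18 ± 0.16 (4.52-fold, adjusted p = 1.57e-06), and by 1.52 ± 0.16 between the matured fractions (adjusted p = 0.000367). Brcc3, which cuts lysine-63 chains, fell by 0.88 ± 0.16 (adjusted p = 0.00254) and fell by 1.32 ± 0.18 (adjusted p = 0.000197).

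Partner proteins of deubiquitinases gave 22 measured genes, all above the mark in at least 1 fraction. Of these, 3 were higher and 4 lower in CCR7+Il12b- and 6 higher and 7 lower in CCR7+Il12b+ cells. That is 31.8% and 59.1%, against 35.0% and 46.4% of all genes above the mark (23.6% and 32.0% of all genes). Partners of Usp22 in SAGA moved in both directions. Atxn7, which anchors the deubiquitinase module, rose by 0.52 ± 0.10 (adjusted p = 0.00406) and 1.13 ± 0.12 (adjusted p = 2.13e-05), while Eny2, a small subunit of that module, fell by 0.69 ± 0.19 (adjusted p = 0.0214) and fell by 0.85 ± 0.21 (adjusted p = 0.00959). The former Eny2 call ended without CCR7+Il12b- replicates 2 or 3 or immature replicates 1 or 2, 1 at a time (0.0631 to 0.0763), and the latter without CCR7+Il12b+ replicate 2 (0.0611). Sgf29, a histone reader of SAGA, fell by 1.31 ± 0.15 in CCR7+Il12b- cells (adjusted p = 0.000109). In CCR7+Il12b+ cells its mean of 4.53 lay below the mark, so it was at least 3.14-fold lower than in immature cells, with the mark standing for any lower array (adjusted p = 3.12e-06). Stam2, an ESCRT protein that binds Usp8, rose by 0.37 ± 0.10 (adjusted p = 0.0176) and 0.88 ± 0.11 (adjusted p = 8.43e-05), the former not without any 1 immature array or CCR7+Il12b- replicate 1 or 3 (0.0519 to 0.0585), nor with array medians set equal (0.0742).

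Regulators of linear ubiquitin and NF-kB gave 14 measured genes, all above the mark in at least 1 fraction. Of these, 3 were higher and 2 lower in CCR7+Il12b- and 4 higher and 2 lower in CCR7+Il12b+ cells. That is 35.7% and 42.9%, near the 35.0% and 46.4% of all genes above the mark (23.6% and 32.0% of all genes). Tnip1, a partner of A20, rose by 1.05 ± 0.11 (adjusted p = 6.81e-05) and 1.37 ± 0.12 (adjusted p = 8.62e-06), and Rnf31, the catalytic subunit of the linear ubiquitin ligase, by 0.52 ± 0.11 (adjusted p = 0.00583) and 0.82 ± 0.13 (adjusted p = 0.000407). The largest rise of that list was Ube2l6, by 1.65 ± 0.26 (adjusted p = 0.000934) and 2.60 ± 0.29 (adjusted p = 4.13e-05), and its product is known mainly as the conjugating enzyme of ISG15. Ube2v1, a cofactor of Ubc13, fell by 0.62 ± 0.15 (adjusted p = 0.0128) and fell by 0.64 ± 0.17 (adjusted p = 0.0149), the latter not without CCR7+Il12b+ replicate 1 (0.0936) or with its rows averaged (0.135).

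Ubiquitin genes with activating and conjugating enzymes gave 25 measured genes, all above the mark in at least 1 fraction. Of these, 4 were higher and 4 lower in CCR7+Il12b- and 4 higher and 6 lower in CCR7+Il12b+ cells. That is 32.0% and 40%, below the 35.0% and 46.4% of all genes above the mark (23.6% and 32.0% of all genes). Ube2c, the conjugating enzyme of the anaphase-promoting complex, fell by 1.19 ± 0.21 (adjusted p = 0.00176) and fell by 2.47 ± 0.23 (5.54-fold, adjusted p = 1.11e-05). Uba7, the activating enzyme of ISG15, rose by 1.31 ± 0.17 (adjusted p = 0.0003) and 1.95 ± 0.19 (adjusted p = 1.75e-05). The related conjugating enzymes Ube2e2 and Ube2e1 had opposite signs in both matured fractions. Ube2e2 rose by 1.83 ± 0.21 in CCR7+Il12b- cells (adjusted p = 0.000103) and by 1.11 ± 0.23 in CCR7+Il12b+ cells (adjusted p = 0.00321). Ube2e1 fell by 0.49 ± 0.13 (adjusted p = 0.017; 0.0522 to 0.0837 without immature replicate 2, immature replicate 3 or CCR7+Il12b- replicate 3) and by 1.23 ± 0.14 (adjusted p = 5.04e-05). Proteases of SUMO and NEDD8 gave 10 measured genes, with 1 higher and 3 lower in CCR7+Il12b- and 1 higher and 4 lower in CCR7+Il12b+ cells. That is 40% and 50%, against 35.0% and 46.4% of all genes above the mark (23.6% and 32.0% of all genes). Desi2 fell by 1.13 ± 0.19 (adjusted p = 0.000732) in CCR7+Il12b+ cells, and Senp2, a SUMO protease, rose by 0.54 ± 0.12 (adjusted p = 0.00524) there.

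Markers of other cell types were measured on the same arrays. In the macrophage list of 8 markers, 3 rose and 1 fell in CCR7+Il12b- cells, and 3 rose and 2 fell in CCR7+Il12b+ cells. Spic rose by 3.15 and 3.065 and Vcam1 by 2.57 and 3.17 in the CCR7+Il12b- and CCR7+Il12b+ fractions, while Cd68 fell by 1.38 and 2.67. The other rise in CCR7+Il12b- cells was Adgre1, which lay below the mark in immature cells. C1qc lay below the mark in every fraction. The mean of the 8 markers ran from 6.07 to 6.30 on immature, 6.73 to 6.85 on CCR7+Il12b- and 6.63 to 6.67 on CCR7+Il12b+ arrays. The mean of 5 B cell markers ran from 5.04 to 5.30, 5.70 to 5.96 and 5.30 to 5.43, with Cd79a and Ebf1 below the mark throughout. Of the B cell markers, Ms4a1 rose by 1.51 (adjusted p = 0.000104) in CCR7+Il12b- and by 0.91 (adjusted p = 0.00328) in CCR7+Il12b+ cells. Cd79b rose by 0.57 (adjusted p = 0.0406) in CCR7+Il12b- and fell by 0.58 (adjusted p = 0.0499) in CCR7+Il12b+ cells, and both calls ended in several other fits. In the whole B cell list, 3 rose and 0 fell in CCR7+Il12b- cells, and 1 rose and 1 fell in CCR7+Il12b+ cells. The mean of 8 CD11b+ dendritic cell markers ran from 5.37 to 5.79, 5.90 to 6.08 and 5.50 to 5.57, with Clec4a4 and Mgl2 below the mark throughout. Single markers of this list moved in both directions. In CCR7+Il12b- cells 3 rose and 1 fell, and in CCR7+Il12b+ cells 2 rose and 2 fell. Esam rose by 1.04 and 1.41, while Cd209a fell by 1.02 and 2.03. For 5 plasmacytoid markers it ran from 6.93 to 6.98, 6.47 to 6.64 and 6.38 to 6.48. T cell, NK cell, neutrophil and erythroid markers had list means between 4.05 and 5.31 on every array. The part of these cell types in the changes of the deubiquitinase genes was not tested.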

How the data were processed

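Per the labels' protocols, RNA of sorted cells was purified on columns, amplified from 3 or 20 ng over 2 rounds, and given biotin; the input of single samples is not given in the sources used. The authors deposited log2 expression values, for which the submitters' processing notes name RMA and oligo; their versions and the genome build: not given in the sources used here. Quantile normalization in RMA hides a change of total RNA per cell.

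Of 35556 rows, 21789 carried 1 symbol in the platform annotation, 1621 several and 12146 none. For 999 genes with several rows, the row of highest mean stood for the gene, Usp24, Usp31 and Usp54 among them. Gene identifiers of 63 of the 64 members were found in the RefSeq table. No gene was filtered before testing. Groups came from the sample titles. All 8 arrays entered 1 model with 3 group means (lmFit and eBayes in limma 3.58.1, R 4.3.3; 5 residual and 5.86 prior degrees of freedom), with two-sided tests and Benjamini-Hochberg adjustment over 19938 genes. Precision is limited by the number of arrays. The script was tested on simulated data. No 2 arrays held identical values.

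The members and gene lists were chosen with earlier results of these data known. The rule named in each comparison the 8 largest called rises and falls, with every array for changes of at least 1, the paralogs, Usp6nl, and at most 4 genes of each other list. Remaining members are named to account for all 64; among called ones, Usp3, Usp8, Usp17ld and Usp31 were named after their values were seen. Promoter sequences are RefSeq's on GRCm38.p6. Alternatives were other scalings, filters, variance models, blocks, row averaging, fits on 2 groups and leaving out each array.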

Additional observations from a re-analysis of the deposited data

How the results depend on the processing

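Against the 16 members called in CCR7+Il12b- cells, leaving out 1 array gave 10 to 16, and 9 passed an adjusted p under 0.01. Against the 23 called in CCR7+Il12b+ cells, leaving out 1 array gave 17 to 23. Between the matured fractions, where 3 were called, leaving out 1 array gave 1 to 5, only the 2 groups compared gave 1, and an adjusted p under 0.01 gave 1. Over 19 other fits, 9 of 16, 15 of 23 and 1 of 3 calls passed in each, and no called change turned its sign. With array medians set equal, the median change of all genes in CCR7+Il12b+ against immature cells moved from 0.09 to -0.05 and that of the members from 0.05 to -0.09. Replicate numbers are shared between groups, and the labels do not say whether they pair the samples. Deviations from the group means correlated from -0.17 to 0.22 over 7 pairs of arrays with the same number. Over 14 pairs of other numbers the correlations ran from -0.22 to 0.19. With 2 or 3 arrays in a group, the deviations within it are tied to each other, so these correlations cannot decide whether the samples are paired. A fixed replicate block gave 14, 20 and 2 calls, and a random block 15, 20 and 3. Of 1848 values of named members under alternatives, 1767 stayed on the same side of the threshold, 72 lost a call and 9 gained one. Reversal was counted only for values called in the main or the other fit, and there were 0. Values called in neither fit could change sign, as those of Usp51, Usp27x and Usp4 did in some fits. Each group has 2 or 3 arrays, and genes near the background mark have only bounds or no fold.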
